A study of Mus musculus with 8 samples.

Results

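Expression in mouse dorsal skin at embryonic day 16.5 (E16.5) was set against the stages on either side of it, E14.5 and E18.5. The question was which genes stood at a high point or a low point at E16.5 and did not simply rise or fall through all 3 stages. A gene was taken as a peak where its 3 E16.5 arrays all lay above the 5 other arrays, and as a trough where they all lay below. By that rule 1738 of 18193 measured genes were peaks (9.55% of all genes) and 1552 were troughs (8.53%). The rule reads the values themselves, so these counts are a description and carry no test.

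The series followed wild-type embryos through epidermal differentiation, with dorsal skin on 2 arrays for E14.5 and on 3 each for E16.5 and E18.5. No group carried a treatment or an engineered allele. RNA of the whole skin was hybridised to Affymetrix Mouse Genome 430 2.0 arrays, on which each probeset reads 1 stretch of a transcript. Whether samples of a stage are different embryos is not stated in the labels, and each p-value is measured against the spread of these samples only.

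The epidermis begins as a thin epithelium covered by periderm, a transient outer layer. Basal cells then give rise to spinous and granular cells, which build a cornified envelope of crosslinked proteins coated with ceramides, and the outward barrier is completed in the last days of gestation. Grainyhead-like and Klf4 transcription factors act in that programme, while hair follicles grow down from the same sheet. In bulk skin, fewer cells of a type and less RNA per cell cannot be told apart.

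The label of dorsal skin was borne out by its markers. Keratinocyte genes (Krt5, Krt14, Krt1, Krt10, Lor) and dermal collagens (Col1a1, Col3a1) were bright on all 8 arrays, with Krt10 at 10336 or more and Col3a1 at 17354 or more. Signals are intensities on a linear scale. The background of an array was the 95th percentile of 83 probesets of olfactory, vomeronasal and taste receptors, and it lay between 34.4 and 90.5.

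The E14.5 arrays stood apart from the others. The ratio of 3′ to 5′ actin control signals was 6.49 and 6.91 there, 1.11 to 1.14 on the E16.5 arrays and 1.35 to 1.37 on the E18.5 arrays. For Gapdh it was 2.96 and 3.03, compared with 0.692 to 0.869 later. Their median signal over all probesets was 60.8 and 63.4 against 120.1 to 152.6. How the arrays were prepared and the stage cannot be told apart in any difference from E14.5, so the counts that follow are set beside counts from the E16.5 and E18.5 arrays alone. With the E14.5 arrays left out, the E16.5 arrays of 2635 genes lay above all 3 E18.5 arrays (14.5%) and those of 4380 genes lay below them (24.1%), by the values alone. Other summaries of the same arrays bear on the balance of directions too. Centring each array on its median moved the median of all genes, for E16.5 minus the average of its neighbours, from 0.05 to -0.34 on the log2 scale.

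A limma fit of log2(signal + 16) to all 8 arrays put sizes and errors on these differences. For E16.5 minus the average of the E14.5 and E18.5 means, 5017 genes were higher (27.6%) and 3208 lower (17.6%), with p-values adjusted by Benjamini-Hochberg and a threshold of 0.05. The higher genes made 61.0% of those calls, 32.8% after median centring, 53.0% after quantile normalization and 70.2% when the probesets of a gene were averaged. That contrast also takes in genes that changed on 1 side only, so a stricter joint call asked for an adjusted p under 0.05 against each neighbour in the same direction. It held for 618 peaks (3.4% of genes) and 524 troughs (2.88%), all of which also met the array rule. The joint call uses the values that define a peak or trough and is not independent support for it.

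Against E14.5 alone, 6744 genes were higher at E16.5 (37.1%) and 3782 lower (20.8%). Against E18.5 alone, 1015 were higher (5.58%) and 1325 lower (7.28%). The E18.5 side was therefore the narrower gate. In a fit of only the 6 E16.5 and E18.5 arrays 1111 genes were higher at E16.5 (6.11%) and 1503 lower (8.26%), and 610 of the 618 peaks and 472 of the 524 troughs were called in the same direction against E18.5. Those peaks and troughs had already been chosen by their difference from E18.5 on the same values. The overlap is therefore no independent support, and it does not bear on the E14.5 side. Each E16.5 array mattered to the counts, which were 272, 278 and 203 peaks and 259, 243 and 177 troughs without E16.5 replicates 1, 2 and 3. Just inside and just outside the threshold lay Cd37 and Fam149a among peaks (limma, larger adjusted p 0.0496 for Cd37), and Ahr and Rabep1 among troughs, with 0.0494 and 0.0501.

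The 2 outer stages often differed around a called gene. Of the 618 peaks, 432 had a higher E18.5 than E14.5 level, 14 a lower one and 172 no called difference. Of the 524 troughs, 321 were lower at E18.5 than at E14.5, 11 higher and 192 without a called difference. Over all genes limma called 7585 higher at E18.5 than at E14.5 (41.7%) and 3544 lower (19.5%), with the same reservation on the E14.5 arrays. The median log2 contrast was 1.42 over the called peaks and -1.30 over the called troughs. A margin of 2-fold against both neighbours was passed by 171 peaks and 139 troughs.

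**Figure D1:**
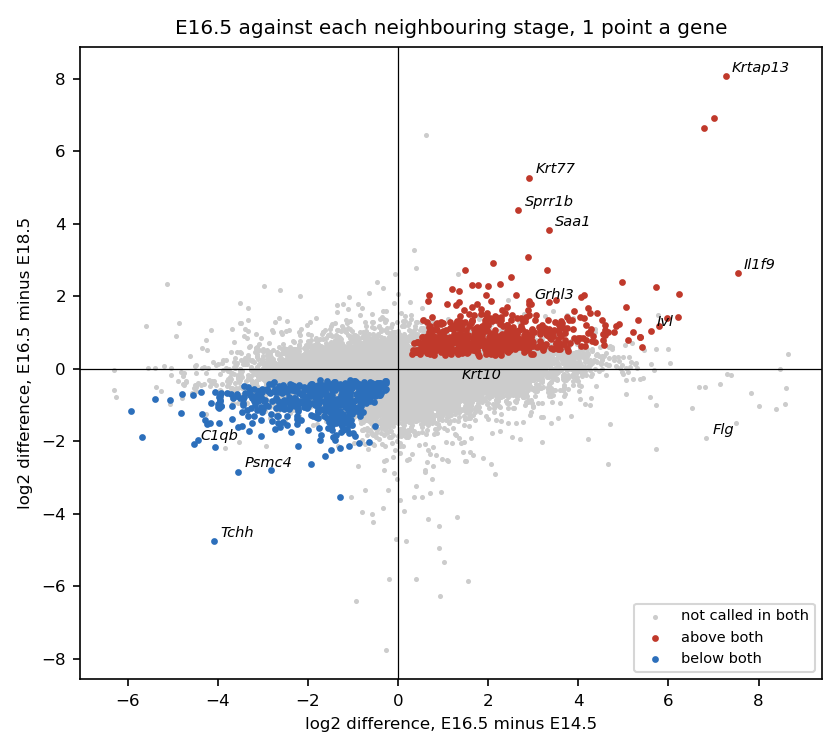
Each point is 1 of 18193 genes, placed by the log2 difference of E16.5 from E14.5 on the horizontal axis and from E18.5 on the vertical axis, both on the log2(signal + 16) scale. Red points are the 618 genes called above both stages and blue points the 524 called below both; Krtap13 lies highest on the vertical axis, and Flg lies far to the right but below 0.

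The peaks that led the ranking were 3 genes of a keratin-associated cluster on chromosome 16. The ranking took the smaller of the 2 log2 differences after raising every signal to its array's background. Keratin-associated proteins are matrix proteins that surround keratin filaments in hair. Krtap13 was at 10.5 and 41.7 at E14.5, reached 11145, 3018 and 6554 at E16.5, and read 9.06, 7.82 and 2.51 at E18.5. It was thus below background on all 5 outer arrays and among the bright genes on every E16.5 array. Where a dim array lay at or below background, a fold is a bound, taken against the higher of background and signal and averaged on the log2 scale. Krtap13 was at least 136-fold above E14.5 and at least 77.3-fold above E18.5, with log2 differences of 7.27 ± 0.50 and 8.09 ± 0.45 (SE) and an adjusted p of 4.84e-05 by limma, the larger of both sides as for every joint p here.

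The other two genes carry only clone names and are named after their values were seen. 2310034C09Rik was at 10486, 3647 and 6411 at E16.5, against 6.10 and 131 at E14.5 and 38.3 to 56.1 at E18.5. 2310057N15Rik was at 5118, 1076 and 2853 at E16.5 and at 3.47 to 5.67 on the 5 other arrays. In all 3 genes replicate 1 was the highest E16.5 array and replicate 2 the lowest. Among measured genes they sit next to each other, and the measured genes on either side did not share the pattern: Krtap13-1 averaged 41.9 at E16.5, rising to 104.9 at E18.5, and Krtap14 averaged 16.8 and 27.3. Of 38 measured genes whose symbol starts with Krtap, Krtap13 was the only called peak and 1 was a called trough (2.63% each, beside 3.4% and 2.88% of all genes). The clone-named genes 2310034C09Rik and 2310057N15Rik, both called peaks, are not in that count because it was made by symbol.

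The sequences just before the 3 start sites are shown because the genes moved together. They are the 130 bases upstream, read from RefSeq (GRCm38.p6), with capitals marking the longest run that all 3 share.
Krtap13, chr16:88751629-88751758, minus strand: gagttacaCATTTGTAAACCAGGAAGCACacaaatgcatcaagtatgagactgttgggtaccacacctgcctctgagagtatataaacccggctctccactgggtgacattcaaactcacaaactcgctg
2310034C09Rik, chr16:88758717-88758846, plus strand: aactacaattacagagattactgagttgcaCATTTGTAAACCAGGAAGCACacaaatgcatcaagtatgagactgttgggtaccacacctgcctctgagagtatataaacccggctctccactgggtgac
2310057N15Rik, chr16:88774207-88774336, minus strand: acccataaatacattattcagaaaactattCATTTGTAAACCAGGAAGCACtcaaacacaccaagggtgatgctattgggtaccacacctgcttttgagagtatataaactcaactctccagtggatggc
The shared run is 21 bases long. It starts 122 bases before the start site of Krtap13 and 100 bases before those of the other two. Of 32851 promoters in the RefSeq table, 3 held it, those of these genes. Over the 300-base promoters (250 bases before and 50 after the start), Krtap13 and 2310034C09Rik were 91.7% identical, Krtap13 and 2310057N15Rik 75.3%, and 2310034C09Rik and 2310057N15Rik 80.3%. Those windows hold at most the first 50 bases of a transcript, and whether the 3 signals are separate was not tested.

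The next peaks included epidermal keratins and envelope proteins. Krt77, a type II keratin of suprabasal epidermis, was at 2502 and 2988 at E14.5, reached 20228, 20971 and 20908 at E16.5, and dropped to 612, 696 and 327 at E18.5. The E16.5 arrays were tightly grouped, and Krt77 had fallen below its E14.5 level by E18.5 (log2 difference between the outer stages -2.36 ± 0.26 SE, adjusted p 1.94e-05 by limma). The peak was 7.57-fold over E14.5 and 39.9-fold over E18.5 (joint adjusted p 1.01e-05). Sprr1b, a small proline-rich envelope precursor, was at 1087 and 1657, then 9110, 7262 and 9797, then 188, 789 and 423. It followed the same course as Krt77, at 6.45-fold over E14.5 and 21.8-fold over E18.5 (limma adjusted p 4.19e-04). Krt13, a keratin of mucosal and embryonic surface epithelia, was dim at 10.0 and 126 at E14.5, reached 242, 651 and 510.3 at E16.5, and lay at 12.8, 66.5 and 46.7 at E18.5. Its call (limma adjusted p 0.0128) was lost without E14.5 replicate 1 or E16.5 replicate 2 or 3, at an adjusted p of up to 0.0610.

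A group of secreted immune and acute phase genes also led the ranking. Saa1, an acute phase serum amyloid protein, was at 64.5 and 36.5 at E14.5, reached 772, 536 and 647 at E16.5, and read 15.3, 22.7 and 65.9 at E18.5. Other probesets of a gene are described where they lay above background on 3 or more arrays, a filter that the E16.5 arrays can meet alone. A second Saa1 probeset read 9.30 and 21.6, then 1827, 1174 and 1464, then 4.29, 18.8 and 5.69. Both probesets put Saa1 at or near background on the outer arrays and far above it at E16.5. Il1f9, which encodes interleukin-36 gamma, an epithelial cytokine, rose from 5.08 and 23.1 to 4265, 5626 and 6221, and fell to 766, 1025 and 751. Il1f6, its neighbour in the interleukin-1 cluster on chromosome 2, encodes interleukin-36 alpha and read 9.81 and 10.0, then 1531, 2208 and 2169, then 391, 686 and 338. Both genes kept a level at E18.5 well above E14.5. Il1f9 was 6.33-fold and Il1f6 4.33-fold higher at E16.5 than at E18.5 (limma adjusted p 3.99e-04 and 0.00161). Il22ra2, a soluble receptor that binds interleukin-22, was at 395, 821 and 637 at E16.5, at least 13.3-fold above E14.5 and 4.45-fold above E18.5. Of 35 measured genes on the list of the interleukin-1 family and innate defence, only Saa1, Il1f9 and Il1f6 were called peaks (8.57%, beside 3.4% of all genes). None was a called trough. The median log2 contrast of that list was -0.0021, beside 0.05 for all genes.

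Cldn4, a tight junction claudin, was at 101 and 109 at E14.5, reached 1790, 1958 and 2283 at E16.5, and returned to 495, 686 and 363. No array of another stage came within 2-fold of the E16.5 values, and the gene was 19.1-fold above E14.5 and 4.02-fold above E18.5 (limma adjusted p 8.08e-04). Gng4, a G protein gamma subunit, was at 1013 and 1836, then 5245, 5417 and 5719, then 1292, 1395 and 754, and both of its other probesets peaked as well. Orm1, the acute phase protein alpha-1-acid glycoprotein, was at 641 and 1778, then 4703, 3866 and 4063, then 886, 1680 and 709. For Gng4 and Orm1 the outer stages overlapped, with log2 differences of -0.30 and -0.07 between them that limma did not call. Ctse, the aspartic protease cathepsin E, was at 3611, 3217 and 3145 at E16.5, 37.0-fold over E14.5 and 5.37-fold over E18.5. Its other probeset was highest at E18.5, at 520, 194 and 219 against 84.1, 62.5 and 67.7 at E16.5, so the probesets of Ctse disagree. The call of Ctse was lost without E16.5 replicate 1 (limma adjusted p 0.0501).

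Sod3, the extracellular superoxide dismutase, was at 1866, 2763 and 3041 at E16.5, compared with 413, 759 and 415 at E18.5, and its other probeset peaked too. Its call (limma adjusted p 0.0297) was lost without any 1 of the E16.5 arrays or E18.5 replicate 1 or 3, at an adjusted p of up to 0.113. Mdfi, an inhibitor of myogenic regulatory factors, was at 697, 547 and 565 at E16.5 and between 76.0 and 111 on all outer arrays. Pnmal2 was at 1141, 1034 and 1247, against 162 to 329 elsewhere. The calls of Mdfi and Pnmal2 held in every alternative run, at an adjusted p of at most 0.00556 and 0.0104 by limma, but the other, dim probeset of each did not peak, with 63.9 to 102 for Mdfi and 89.5 to 148 for Pnmal2 at E16.5 and up to 89.4 and 126 at E18.5.

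**Figure D2:**
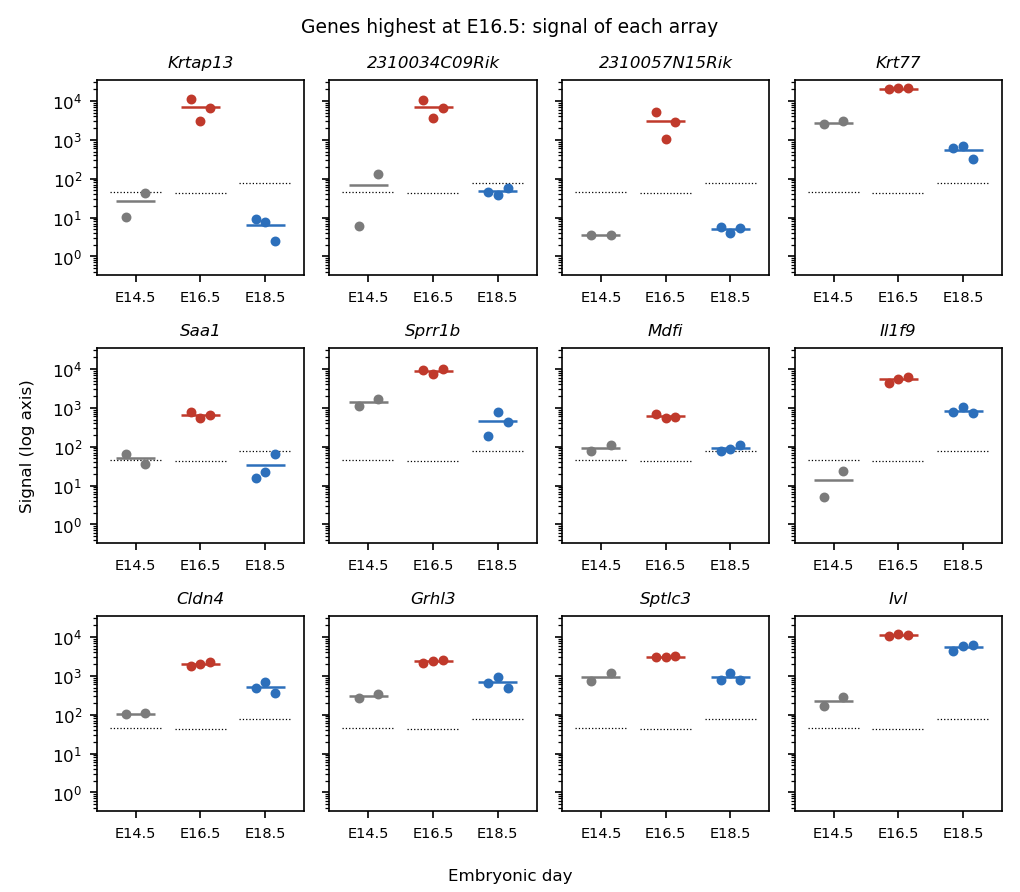
Signals of 12 peak genes described here on each of the 8 arrays, on a log10 axis, by stage. Points are arrays, solid lines stage means and dotted lines the mean background of the stage; in every panel the 3 E16.5 points lie above all others, and Krt77 and Sprr1b end lower at E18.5 than at E14.5.

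Gene lists covering the epidermis, follicle, dermis and other cell types show where peaks gathered. Over all genes 3.4% were called peaks and 2.88% troughs, and the counts of every list are to be set beside those shares. The list of granular and cornified envelope genes had 11 called peaks and no called trough among 47 measured members (23.4%), with a median log2 contrast of 1.62 beside 0.05 over all genes. In the 6-array fit 14 of these genes were higher at E16.5 than at E18.5 and 6 lower, beside 6.11% and 8.26% of all genes. The list was therefore mixed on the E18.5 side, and its median difference from E18.5 was -0.15. Between 7 and 12 members were called when single arrays were left out.

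Among the envelope precursors, Ivl (involucrin) was at 164 and 284 at E14.5, reached 10647, 12037 and 11332 at E16.5, and was at 4336, 5922 and 6299 at E18.5. The E16.5 arrays lay above all others, and a second Ivl probeset, at 2059, 2238 and 2612 against 684, 1375 and 1105 at E18.5, did the same. Ivl was 52.6-fold above E14.5 and 2.08-fold above E18.5 (limma adjusted p 0.00834). Lce3c, a late cornified envelope gene, was at 175 and 299.9, then 776, 907 and 1451, then 345, 226 and 242. Cnfn (cornifelin) was at 526 and 1048, then 8636, 10804 and 11310, then 3311, 4827 and 3297. Both were highest at E16.5, but the E18.5 level of Cnfn stayed well above that of E14.5 while the outer levels of Lce3c overlapped.

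The enzymes and plakins of the envelope moved the same way. Tgm1, the membrane transglutaminase that crosslinks the envelope, was at 124 and 166, then 2773, 3087 and 3254, then 1460, 1995 and 1131. Its difference from E18.5 was 2.04-fold (limma adjusted p 0.0106, 0.0571 without E16.5 replicate 3). Tgm3, a second epidermal transglutaminase, was 1.94-fold higher than at E18.5. Its other probeset did not peak, at 1233 to 1436 against 808 to 1372 at E18.5, and averaging the Tgm3 probesets, by mean or median, ended the call (limma adjusted p of up to 0.0564). The plakins Ppl (periplakin) and Evpl (envoplakin), which tie the envelope to desmosomes, were 1.84-fold and 1.64-fold higher than at E18.5 and 4.41-fold and 5.90-fold higher than at E14.5. The remaining called members were Sprr3, Ly6g6c and Sprr2i. Without E16.5 replicate 3 the calls of Ly6g6c and Evpl were lost (adjusted p 0.0512 and 0.0618), and without E14.5 replicate 1 that of Sprr3 was lost (0.138 by limma). Sprr2i is dim, at 33.0 to 39.4 at E16.5, and belongs to a family of near-identical copies, so its value is uncertain. Its call was lost without E14.5 replicate 1 or any 1 of the E16.5 arrays.

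Other epidermal stage genes did not peak. Flg (filaggrin), the granular keratin-aggregating protein, was at 37.5 and 9.16, then 2101, 7961 and 4323, then 17103, 16823 and 13601, a rise through all 3 stages. Lor (loricrin) was at 8581 and 13341, then 25386 to 26944, then 29996 to 33030, and limma did not call its difference from E18.5 (adjusted p 0.270). Another Lor probeset ran the other way, at 6307 and 10194, then 168 to 177, then 113 to 133. Krt10 was at 27950 to 30874 and then 38570 to 38931. These are the highest signals of any probeset on replicates 1 and 2 of E16.5 and of E18.5. A change in Krt10 was therefore not tested apart from a change in the top of the range. For Krt5 and Krt14 the log2 difference of E16.5 from E18.5 was -0.24 ± 0.12 and -0.26 ± 0.11 (SE), which limma did not call. Klf4, a barrier transcription factor, was at 9085, 9597 and 8442 at E16.5 and overlapped E18.5, at 8036, 13526 and 7473. So involucrin, Tgm1 and Krt77 had their high point at E16.5, while filaggrin was highest at E18.5.

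Spinous genes had 6 called peaks (21.4%) and 2 called troughs (7.14%) among 28. Krt80, a keratin of differentiating epithelia, was at 163 and 168, then 3209, 4817 and 4752, then 2001, 1944 and 1143. Cysrt1, Calml3, Sfn (14-3-3 sigma) and Notch1, the receptor that drives spinous fate, were 1.77-fold, 1.65-fold, 1.51-fold and 1.45-fold above E18.5. Leaving out E16.5 replicate 3 ended the calls of Cysrt1, Calml3, Sfn and Notch1, and other single arrays also ended those of Cysrt1, Calml3 and Notch1, at a limma adjusted p of up to 0.106, 0.110 and 0.1998. The troughs were Dsg1b, a desmosomal cadherin, at 2260 and 2743, then 329.8, 381 and 240.4, then 511, 772 and 653 (0.0602 by limma without E16.5 replicate 3, adjusted p), and Fabp5, an epidermal fatty acid binding protein. Fabp5 fell to 19959 to 21502 from 26846 or more on both sides, and another Fabp5 probeset did not share that course.

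Lipid genes of the barrier were a further group. Of 47 measured genes for ceramides and the lipid envelope, 10 were called peaks (21.3%) and 2 troughs, with a median contrast of 0.66, or 0.27 after median centring. Sptlc3, a subunit of the serine palmitoyltransferase that starts sphingolipid synthesis, was at 719 and 1168, then 3133, 3024 and 3234, then 761, 1209 and 798. It rose 3.41-fold and fell back 3.47-fold, and its outer stages overlapped (limma adjusted p 0.00117). Its other, dim probeset did not peak. Alox12b, a lipoxygenase that oxidises acylceramides, was at 222 and 561, then 5824, 7350 and 7575, then 1482, 3765 and 1720, 3.23-fold above E18.5. Sult2b1, which makes cholesterol sulfate, was at 369 and 538, then 3299, 4027 and 3997, then 1634, 1807 and 1057, 2.57-fold above E18.5. The E16.5 values of Alox12b and Sult2b1 were clear of the others, with limma adjusted p of 0.0173 and 0.00397, and the call of Alox12b was lost without E16.5 replicate 2 or 3 or E18.5 replicate 1 (adjusted p of up to 0.0731).

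The other called lipid peaks were 1.74-fold to 2.17-fold above E18.5. They were Cyp4f39, an omega-hydroxylase of ultra-long fatty acids, Dgat2, which makes triglycerides, Ephx3, an epoxide hydrolase, Smpd1, the acid sphingomyelinase, Slc27a4, a fatty acid transporter, Elovl6, a fatty acid elongase, and Pnpla1, an acylceramide transacylase. The other probeset of Smpd1 did not peak, at 197 to 298 against 231 to 433 at E18.5, and averaging by mean or median ended its call too (limma adjusted p of up to 0.337). Dgat2 peaked on its second probeset as well, at 4952, 5637 and 5605 against 2097 to 3815 at E18.5. The calls of Ephx3 and Pnpla1 were lost without any 1 of the E16.5 arrays and most single E18.5 arrays, and that of Slc27a4 without E16.5 replicate 2 or 3 or E18.5 replicate 2, at a limma adjusted p of up to 0.152, 0.182 and 0.0988. The troughs were the ceramide synthase Cers6, at 424, 485 and 357 against 728 to 856 at E18.5, and Degs2, a ceramide desaturase, at 8.27, 6.85 and 2.78 against 189 to 271 at E18.5. The E16.5 values of Degs2 lay below background. With signals raised to background its margin was among the smallest of the called troughs, so its fall from E14.5 lies among dim values. Of 20 cholesterol synthesis genes, 3 were called peaks (15%) and none a trough. Sqle, the squalene epoxidase, was at 5073, 5069 and 5082 against 2014 to 3084 at E18.5 and 1076 and 1340 at E14.5. The kinase Mvk was 1.90-fold and the desaturase Sc5d 1.37-fold above E18.5, and other probesets of Mvk and Sc5d did not peak. The call of Mvk was lost without E16.5 replicate 3 (limma adjusted p 0.0534) and that of Sc5d without any 1 of the E16.5 or E18.5 arrays (up to 0.170). The median contrast of the cholesterol genes was 0.32 and turned to -0.07 after median centring.

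Transcription factors of the barrier showed 7 called peaks (14.6%) and 3 called troughs (6.25%) among 48, with 5 and 5 after quantile normalization. Their median contrast was 0.38, and after median centring -0.0036. Grhl3, a Grainyhead-like factor required for the barrier, was at 267 and 345, then 2103, 2445 and 2573, then 670.1, 934 and 478. Its E16.5 arrays were more than 2-fold over every other array, 7.79-fold above E14.5 and 3.54-fold above E18.5 on average (limma adjusted p 0.00144), and the call held in all alternatives at an adjusted p of at most 0.0121. Ppard, a nuclear receptor for fatty acids, was at 23.0 and 74.7, then 1175, 1102 and 1121, then 329.7, 341 and 472. Dlx5, a homeobox factor, was at 263 and 275, then 1075, 1005 and 949, then 299, 593 and 166. Both were above every other array at E16.5, though the call of Dlx5 was lost after quantile normalization, after median centring and without any 1 of the E16.5 arrays (limma adjusted p of up to 0.0578), and that of Ppard with the mean or median of probesets (up to 0.0744). Ovol1 was 2.06-fold and the nuclear receptor Rora 1.83-fold above E18.5, and 6 of 7 other Rora probesets peaked too. The other Ovol1 probeset did not peak, at 355 and 438, then 389, 334 and 380, then 291, 195 and 163. Without E16.5 replicate 3 the call of Rora was lost (limma adjusted p 0.0534). Ehf and Nfe2l2 completed the peaks at 0.0348 and 0.0457 (limma adjusted p) and lost the call without any 1 of the E16.5 arrays and without several others, at an adjusted p of up to 0.137 and 0.145.

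The factor troughs were Tfap2c, Maf and Ahr, the last of which lost its call in 7 of the 8 fits without 1 array (limma adjusted p of up to 0.147). Tfap2c, which acts early in the surface ectoderm, was at 6660 and 8047, then 703, 737 and 659.5, then 1491, 1781 and 1462, with 1 of its 2 other probesets agreeing. Maf fell 4.68-fold below E14.5 and stood 1.91-fold below E18.5, but none of its 5 other probesets was a trough. Trp63, the master factor of stratified epithelia, gave a trough on its brightest probeset, at 5926 and 7703, then 2698, 3049 and 2630, then 4447, 6104 and 4085. Its 3 other probesets rose from E14.5, as from 8.22 and 1.91 to 660.8, 918 and 644. The contrast of Trp63 was -1.03 on the chosen probeset and 1.03 over the mean of all of them, so the direction of Trp63 depends on the probeset. Its call was also lost without E16.5 replicate 1 or 3 (limma adjusted p of up to 0.0652).

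Retinoid and growth factor genes held smaller groups. Of 22 measured retinoid genes 3 were called peaks (13.6%, beside 3.4% of all genes) and none a trough. Sdr16c5, which oxidises retinol, was at 391 and 461, then 4558, 5129 and 5196, then 1903, 765 and 1561, 3.77-fold above E18.5 (limma adjusted p 0.00292). Crabp2, a retinoic acid carrier, was 2.01-fold above both neighbours, and Rdh12 1.86-fold above E18.5, and both calls were lost without E16.5 replicate 3 (limma adjusted p 0.0583 and 0.0637). Of 28 genes of EGFR ligands and the wound response, the ligands Btc and Tgfa were called peaks (7.14%). Btc was at 95.7 and 103, then 1213, 2842 and 1954, then 597, 922 and 604. The calls of Btc and Tgfa were lost when their probesets were averaged, and without E16.5 replicate 3 (limma adjusted p of up to 0.0557 and 0.129 over the left-out arrays). Of 39 epidermal proteases and inhibitors, Klk13 and Ctsd were called peaks (5.13%), at 2.48-fold and 1.51-fold above E18.5. The call of Ctsd was lost without any 1 of the E16.5 arrays (limma adjusted p of up to 0.0917).

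Junction genes split in both directions. Of 16 desmosomal and cornified junction genes, Ppl, Jup and Evpl were called peaks and Dsg1b, Dsc3 and Pkp4 troughs (18.75% each way). Jup (plakoglobin) was at 2968 and 3253, then 6985, 7267 and 7163, then 4482, 5019 and 3692. Dsc3, a basal desmocollin, was at 4629, 4916 and 4206 against 5975 or more on the other arrays, and its contrast of -0.77 became 0.28 when its probesets were averaged. Of 23 tight junction and connexin genes, Cldn4 and Gjb6 were called peaks (8.70%) and Cldn8, Gja1, Cldn12 and Cldn3 troughs (17.4%). Gja1 (connexin 43) was at 24802 and 27596, then 10982, 11832 and 10180, then 16627, 18536 and 16275, and 3 of its 5 other probesets were troughs as well. Cldn3, a claudin of simple epithelia, was near background at E16.5, at 18.7, 7.25 and 4.34. The calls of Gjb6, Dsc3, Cldn8 and Cldn12 were lost without any 1 of the E16.5 arrays and some E18.5 arrays, at a limma adjusted p of up to 0.0996, 0.135, 0.0919 and 0.177, and that of Pkp4 without E16.5 replicate 3 (0.0559).

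**Figure D3:**
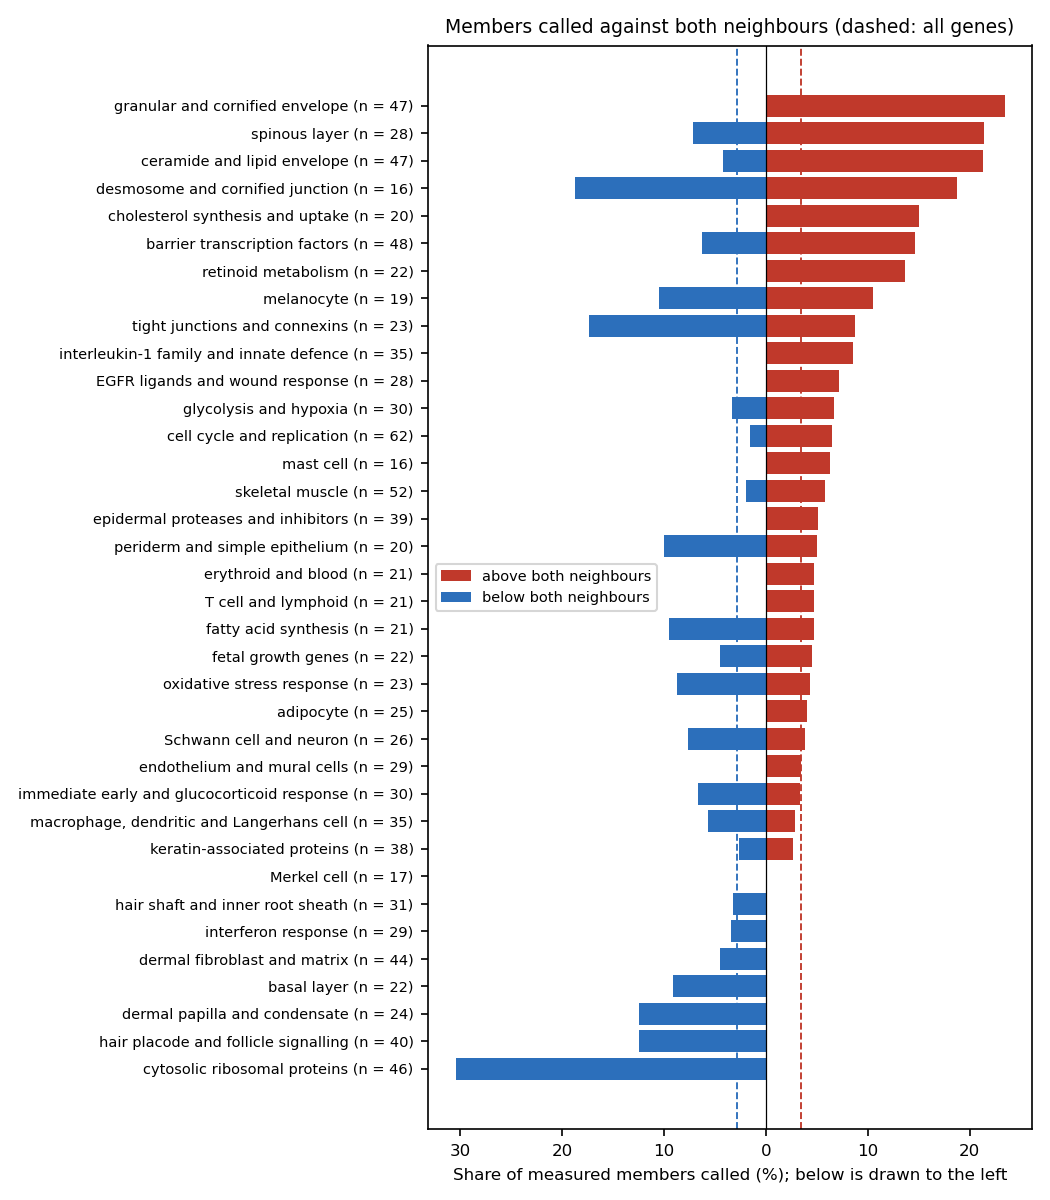
Share of the measured members of each gene list that were called above both neighbours (red, to the right) or below both (blue, to the left), in percent. Dashed lines mark all genes, 3.4% above and 2.88% below; the cornified envelope bar reaches 23.4% on the right with none on the left, and the ribosomal bar 30.4% on the left with none on the right.

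The largest troughs were led by Tchh (trichohyalin), a protein of the inner root sheath of hair follicles. It was at 1129 and 1000 at E14.5, dropped to 38.9, 54.1 and 51.7 at E16.5, and read 3853, 1729 and 749 at E18.5. The E16.5 arrays lay near background, at least 21.8-fold below E14.5 and at least 35.0-fold below E18.5 (limma adjusted p 5.09e-04). It was the only called member among 31 hair shaft and root sheath genes, although 19 of them were lower at E16.5 than at E18.5 in the 6-array fit. The list as a whole did not share its fall from E14.5. The median log2 difference from E14.5 was 0.25, beside 0.29 over all genes. The summed signal of the list was 3234 and 3881 at E14.5 and 4454 to 5724 at E16.5. No other Tchh probeset lay above background.

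Most of the other leading troughs had probesets that did not share the fall. Psmc4, a proteasome ATPase, was at 11057 and 9090, then 1049, 1031 and 549, then 6723, 6655 and 5098, but its other probeset read 2191 and 2552, then 2395, 2397 and 2402, then 3353, 2818 and 2465. Ric8a, a chaperone of G protein alpha subunits, was at 5939 and 5973, then 344, 435 and 269, then 1934, 1569 and 1294, while 1 of its 3 other probesets was a peak. Ddr1, a collagen receptor kinase, was at 5712 and 5072, then 953, 844 and 511, then 6996, 3869 and 5225. Of 6 other Ddr1 probesets 2 were troughs and 1 was a peak. Scd1, a fatty acid desaturase, was at 3329 and 2102, then 516, 557 and 597, then 2817, 4167 and 1290, and its dimmer probeset rose through the 3 stages. Each had its trough on the brightest probeset, and not all of its other probesets shared it. With the mean or median of probesets the call of Psmc4 held (limma adjusted p of at most 0.00542 over all alternatives), those of Ddr1 and Scd1 were lost with contrasts still negative, and the contrast of Ric8a was 0.10 with the median.

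C1qb, a complement component made by macrophages, was at 7100 and 6628, then 346, 285 and 234, then 1714, 1029 and 1130, 4.42-fold below E18.5 (limma adjusted p 5.33e-04). One of its other probesets fell likewise, from 4472 and 3858 to 279, 305 and 209.9, and the other rose from 248 and 245 to 944, 699 and 952. Serf1 was at 217, 249 and 167 against 798 to 959 at E18.5. Matn2, a matrix adaptor protein, was 3.73-fold and Ccdc28b 3.34-fold below E18.5, and no other probeset of either was a trough. Chrdl1, a BMP antagonist, was at 74.1, 43.6 and 52.2 against 206 to 285 on the other arrays, and its call was lost when probesets were averaged.

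Troughs chosen after their values were seen, because another probeset agreed, were Mdh1, Vegfc and Lasp1. Mdh1, the cytosolic malate dehydrogenase, was at 11921 and 12584, then 2356, 2948 and 1837, then 8471, 9398 and 5995, and 1 of its 3 other probesets followed. The brightest of the remaining Mdh1 probesets did the opposite on the E14.5 side, at 1814 and 2536 and then 5327, 5288 and 6224. Vegfc, a lymphatic growth factor, was 2.94-fold below E18.5, with 1 of 2 other probesets agreeing. Adm (adrenomedullin), a hypoxia-responsive peptide named by its list, was at 1910 and 1642, then 47.5, 115 and 85.1, then 183, 405 and 225, and its other probeset was a trough too. The call of Adm was lost without E16.5 replicate 1 or 3 (limma adjusted p of up to 0.0568), and Lasp1, an actin-binding adaptor, had 1 agreeing probeset of 8.

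**Figure D4:**
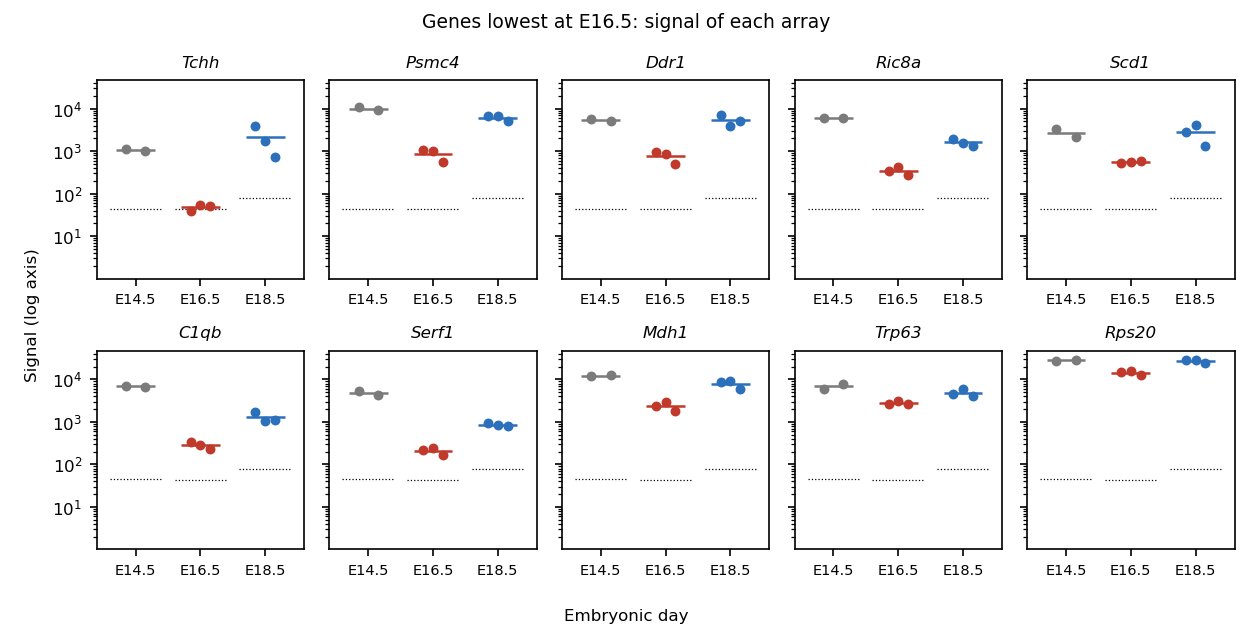
Signals of 10 trough genes described here on each of the 8 arrays, on a log10 axis, by stage. Points are arrays, solid lines stage means and dotted lines the mean background of the stage; in every panel the 3 E16.5 points lie below all others, and Tchh reaches its highest signals at E18.5.

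Probesets that were not used to choose a gene read the same arrays, and their counts are given as a description. With no filter on dim probesets, the called peaks had 641 other probesets, of which 165 (25.7%) lay above every outer array and 28 below, while over all genes 9.59% of 16752 lay above. The called troughs had 902, of which 140 (15.5%) lay below every outer array and 69 above, beside 8.21% below over all genes. On the E18.5 side 71.7% of the trough probesets were lower at E16.5, compared with 59.9% over all genes, and on the E14.5 side 37.7%, compared with 36.0%. The trough probesets were therefore near the share of all genes against E14.5. Above background on 3 or more arrays were 529 other probesets of peaks and 759 of troughs, a filter that a peak can pass through its E16.5 arrays and a trough through its outer ones.

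**Figure D5:**
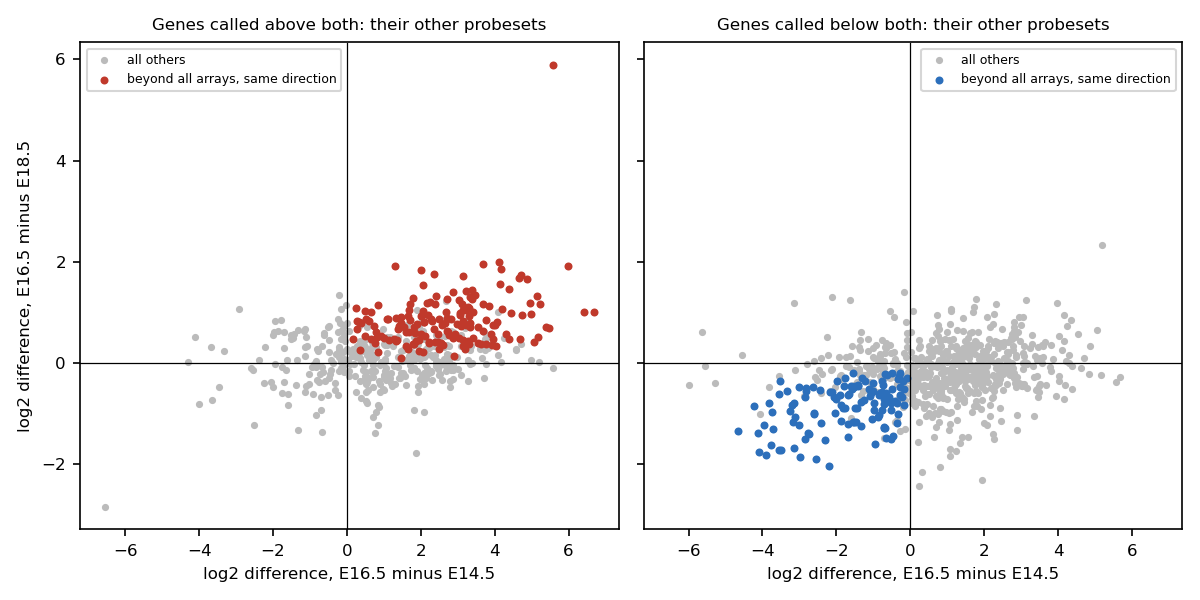
Other probesets of called peaks (left panel) and called troughs (right panel), placed by their log2 differences of E16.5 from E14.5 (horizontal) and from E18.5 (vertical). The 165 red and 122 blue points lie beyond every outer array in the direction of their gene, and the grey points are all others; on the right most grey points lie at positive values against E14.5, where 261 of 759 (34.4%) were lower than E14.5, beside 29.3% over all genes, and only probesets above background on 3 or more arrays are drawn.

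Hair follicle signalling genes held several troughs. Of 40 genes of placode and follicle signalling 5 were called troughs (Sox9, Hoxc13, Fst, Ptch1 and Ctnnb1; 12.5% beside 2.88% of all genes) and none a peak, with 1 trough left when probesets were averaged. Sox9, a factor of follicle progenitors, was at 566 and 538, then 234, 216 and 182, then 757, 468 and 461, 2.61-fold below E18.5 (limma adjusted p 0.00475). Hoxc13, a regulator of hair keratins, was at 62.9, 123 and 106 against 303 to 582 at E18.5. The call of Hoxc13 was lost without E14.5 replicate 1 or E16.5 replicate 1 or 3, and that of Ptch1 without E16.5 replicate 1 or 3 or E18.5 replicate 1 or 3 (limma adjusted p of up to 0.231 and 0.113). The contrasts of Sox9, Ptch1 and Ctnnb1 turned positive with the median of their probesets, at 0.38, 2.56 and 1.17. Of 24 dermal papilla genes 3 were called troughs (12.5%) and none a peak, with 1 trough left when probesets were averaged. Of 44 dermal fibroblast and matrix genes 2 were called troughs (4.55%) and none a peak. No trough was left when probesets were averaged, and the median contrast was 0.27 with 20 genes higher and 7 lower.

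Genes for cytosolic ribosomal proteins had the highest share of troughs of the 36 lists. Of 46 measured, 14 were called troughs (30.4%) and none a peak. Rps20 was at 27341 and 28960, then 14954, 15361 and 12400, then 28686, 27858 and 24696, 1.99-fold below E14.5 and 1.91-fold below E18.5 (limma adjusted p 0.00125). The E16.5 arrays of Rps20 did not overlap either side. Of the 10 called members with another probeset, 7 had one that agreed. In the 6-array fit 26 of the 46 were lower at E16.5 than at E18.5. The median contrast was -0.18, and the median difference from E18.5 was -0.43, beside -0.12 over all genes. From E14.5 the median difference was 0.08, beside 0.29 over all genes, so the list as a whole did not fall from E14.5. The bright cre control was also lowest at E16.5, and its bearing on these bright genes was not tested. Quantile normalization left 3 troughs and 1 peak with a median of 0.01, while median centring gave 15 troughs and a median of -0.57, beside -0.34 for all genes. There were 8 and 10 troughs with the mean and median of probesets, 4 without a variance trend and between 5 and 14 without single arrays, and the cause of these shifts was not tested.

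Markers of other cell types moved in their own ways, and their part in the results above was not tested. For mast cells, 1 of 16 genes was a called peak (Kit, 6.25%). By the array rule 7 of the 16 lay above every outer array, a larger share than the 9.55% of all genes. The summed mast cell signal was 22834 and 23988 for E14.5, then 45758 to 52350, then 31449 to 49140. Kit, the receptor of mast cells and melanocytes, was at 276 and 261, then 1895, 1986 and 1947, then 1108, 1138 and 1374, on the melanocyte list as well. That list also held the peak Rab38 and the troughs Rab27a and Ednrb, with a summed signal of 11782 to 13180 at E16.5 against 13651 or more elsewhere. The calls of Rab38 and Ednrb were lost without any 1 of the E16.5 arrays (limma adjusted p of up to 0.0867 and 0.0830). Of 52 muscle genes 3 were called peaks (5.77%) and 1 a trough (1.92%), beside 3.4% and 2.88% of all genes. Tnni1, slow troponin I, was at 546 and 812, then 5115, 4695 and 6063, then 1640, 1096 and 1974, and Myh7, slow myosin, was 6.93-fold above E18.5. The third peak, Smyd1, lost its call without any 1 of the E16.5 or E18.5 arrays (limma adjusted p of up to 0.139), and the trough, Mb (myoglobin), lost it in 14 of 16 alternatives, including those without E16.5 replicate 1, 2 or 3. The summed muscle signal was 33501 and 59807 on the E14.5 arrays, 191764 to 211134 on the E16.5 arrays and 195746 to 312185 on the E18.5 arrays.

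Alas2, the erythroid heme enzyme, was at 309 and 316, then 6794, 4156 and 4274, then 1477, 1413 and 2104, the only called gene of 21 in the erythroid list, whose summed signal fell from 24593 and 28184 through 9998 to 15964 to 7450 to 9600. Cdh5, the endothelial cadherin, was at 58.8 and 59.5, then 936, 1013 and 1165, then 529, 283 and 427, with its other probeset a peak, while the summed endothelial signal was 30471 to 34034 at E16.5, overlapping 29211 to 36577 at E18.5. Of 35 macrophage genes Cx3cr1 was a called peak, lost without any 1 of the E16.5 arrays (limma adjusted p of up to 0.135), and C1qb and Laptm5, a lysosomal membrane protein of leukocytes, were called troughs. None of the 4 other Laptm5 probesets was a trough and 1 was a peak. Its contrast of -1.43 became 0.22 with the mean of probesets and 0.89 with the median, and its call was lost without any 1 of the E16.5 arrays (limma adjusted p of up to 0.0678). The summed signal of the macrophage list was 24873 to 25846 at E16.5, below the 33036 and 35720 of E14.5 and the 28977 to 33686 of E18.5. The typical member did not share that low point. The median log2 difference of the list was 0.62 from E14.5 and -0.39 from E18.5, beside 0.29 and -0.12 over all genes. Its median contrast was 0.18, with 9 genes higher and 5 lower. None of 17 Merkel cell genes lay beyond every outer array in either direction. Of 62 cell cycle genes 4 were called peaks (Bub1, Ccne1, Cenpf and Tk1) and Stmn1 a trough. These were 6.45% and 1.61%, beside 3.4% and 2.88% of all genes. After quantile normalization or median centring 1 peak was left. The calls of Bub1, Ccne1, Cenpf and Stmn1 were lost without any 1 of the E16.5 arrays.

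The remaining lists held few called genes, to be read beside the 3.4% of all genes called peaks and the 2.88% called troughs. Of 22 basal layer genes, Sox9 and Trp63 were called troughs and none was a peak, and of 20 periderm and simple epithelial genes 1 was a peak (Krt13) and 2 were troughs (Cldn3 among them). One peak and 2 troughs were called among 21 fatty acid synthesis genes (Scd1 a trough), 23 oxidative stress genes, 30 immediate early and glucocorticoid genes, and 26 Schwann cell and neuron genes. Without any 1 of the E16.5 arrays no trough of the oxidative stress list, neither direction of the immediate early list and no peak of the fatty acid list was left. Ngfr, the nerve growth factor receptor p75, was the peak of the last of these, at 412 and 393, then 986, 1057 and 1276, then 481, 373 and 578, and both of its other probesets peaked too. Of 30 glycolysis and hypoxia genes 2 were peaks and 1 a trough (Adm), and of 22 fetal growth genes 1 was called each way, with none left without any 1 of the E16.5 arrays. A single peak and no trough was called among 25 adipocyte genes (Dgat2), 29 endothelial and mural genes (Cdh5) and 21 T cell and lymphoid genes (Gzmb, at only 35.4 to 44.2, and not called without any 1 of the E16.5 arrays). Of 29 interferon response genes 1 was a trough.

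Among the 75 called peaks and 40 called troughs followed through the alternatives, the mean or median of probesets ended or turned 20 peaks and 27 troughs. Beyond those given above, they included the peaks Krt13, Notch1, Ephx3, Pnpla1, Kit, Rab38, Cx3cr1 and Cenpf and the troughs Pkp4, Cldn12, Cldn3, Rab27a, Ccdc28b, Fst, Rps20 and Mdh1. Quantile normalization or median centring ended 22 peaks and 9 troughs, among them Orm1, Sprr3, Cyp4f39, Elovl6, Klk13, Crabp2, Jup and Myh7. At least 1 left-out array ended 35 peaks and 15 troughs.

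Promoters of the called genes were searched for 3 motifs on either strand in the 300-base RefSeq windows, which were found for 495 of the 618 peaks, 414 of the 524 troughs and 14452 of all measured genes. The Klf4 letters GGGTGTGG occurred in 7.47% of peak promoters, 3.38% of trough promoters and 4.56% of all. The AP-1 letters TGANTCA, which read the same on both strands, occurred in 7.27%, 6.76% and 7.54%. The Grainyhead-like letters AACCNGTT occurred in 2.02%, 3.38% and 2.30%. A match is a description of letters, and it shows no binding.

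Some of the matches before the start sites of peak genes described above are printed to show where the letters lie, with the motif in capitals and 20 bases on each side. Others are left out, among them AP-1 matches of Krt13 and Cysrt1, another of Cldn4, and Grainyhead-like matches of Sfn and Gjb6.
Il1f9, chr2:24186385-24186432, plus strand, Klf4 letters on the other strand: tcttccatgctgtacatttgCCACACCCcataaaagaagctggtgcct
Cnfn, chr7:25369852-25369899, minus strand, Klf4 letters: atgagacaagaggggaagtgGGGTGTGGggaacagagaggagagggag
Alox12b, chr11:69156874-69156921, plus strand, Klf4 letters on the other strand: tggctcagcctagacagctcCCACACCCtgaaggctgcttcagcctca
Ivl, chr3:92573856-92573903, minus strand, Klf4 letters: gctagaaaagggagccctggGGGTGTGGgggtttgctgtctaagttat
Ivl, chr3:92573825-92573871, minus strand, AP-1 letters: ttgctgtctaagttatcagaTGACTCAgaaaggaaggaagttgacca
Sprr1b, chr3:92438864-92438910, minus strand, AP-1 letters: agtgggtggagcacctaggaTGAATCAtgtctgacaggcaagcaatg
Cldn4, chr5:134947066-134947112, minus strand, AP-1 letters: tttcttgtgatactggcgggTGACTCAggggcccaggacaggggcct
Sult2b1, chr7:45742603-45742649, minus strand, AP-1 letters: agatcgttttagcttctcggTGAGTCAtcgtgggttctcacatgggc
The Klf4 letters began 71 bases before the start of Il1f9, 155 before that of Cnfn, 178 before that of Alox12b and 148 before that of Ivl. The AP-1 letters began 116 bases before Ivl, 111 before Sprr1b, 158 before Cldn4 and 151 before Sult2b1. These are GRCm38.p6 coordinates of RefSeq.

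Of the 10092 probesets without 1 gene symbol, 567 lay above every outer array and 811 below. These are counted and not named.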

How the data were processed

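Signals of 45101 probesets on 8 arrays were taken as deposited. The deposited intensities are on a linear scale, and per the submitters' processing notes the authors used Affymetrix Expression Console 1.1 and PLIER 2.0, without saying for which step. The background correction and the scaling between arrays were not given in the sources used here. Per the labels' protocols, biotin-labelled sense-strand DNA was made by a whole-transcript method, while the array type is a 3′ expression array. Gene names came from GEO's platform annotation, which pairs 34958 probesets with 1 symbol, 932 with several and 9211 with none.

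From these values log2(signal + 16) was computed here, without further normalization. The probeset with the highest mean stood for each of 18193 genes. limma 3.58.1 (R 4.3.3) fitted 1 mean per stage (eBayes with a variance trend), adjusted by Benjamini-Hochberg over all genes at 0.05. On data simulated for E16.5 against both neighbours over 18193 genes, the joint call found 34% of genes changed by 1 log2 unit and 72% of those changed by 2, and none of the unchanged ones. The number of arrays limits the precision.

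Genes were named as the first 15 peaks and first 10 troughs in rank with more than a clone symbol, up to 3 peaks and 2 troughs of each of 36 lists, and 12 epidermal stage genes; any other gene named, such as further called members of a list, was picked with its values in view. The members, lists and tests were chosen with earlier results of these data known. The alternatives took quantile normalization, median centring, a pseudocount of 1 or 64, a filter on dim genes, the mean or median of a gene's probesets, no variance trend, array weights and each array left out. A 6-array fit and an array rule without E14.5, a restriction to agreeing probesets and their counts with no filter were added after the data were seen.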

Additional observations from a re-analysis of the deposited data

How the results depend on the processing

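No paired analysis was possible because replicate numbers were given in the order of accessions and link no samples between stages. For E16.5 against the average of its neighbours, median centring left 2876 higher and made 5887 lower calls, and the mean and the median of probesets gave 2096 and 2104 lower calls; the other settings stayed within 1.5 times of the counts reported. Joint calls above were 409 without a variance trend, 133 with an agreeing probeset and 203 to 687 without single arrays. Joint calls below were 297 and 323 with the mean and the median of probesets, 99 with an agreeing probeset and 177 to 518 without single arrays. The counts of the array rule stayed within 1.5 times in the settings run. The causes were not tested.

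Gene contrasts changed sign mainly with the probesets. With their mean they became 0.0058 for Maf, 0.50 for Ahr, 0.28 for Dsc3, 1.22 for Ptch1, 0.95 for Ctnnb1, 1.03 for Trp63, 0.23 for Lasp1, 0.22 for Laptm5 and -0.72 for Lor. With their median they became 0.32 for Maf, 0.50 for Ahr, 0.28 for Dsc3, 0.59 for Ednrb, 0.10 for Ric8a, 0.38 for Sox9, 2.56 for Ptch1, 1.17 for Ctnnb1, 0.89 for Laptm5 and 1.53 for Trp63. Krt1, at 0.01, became -0.37 after median centring and ranged from -0.15 to 0.18 without single arrays.

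Signal over background limits the dim genes: where a stage lay at background, folds are bounds.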
